A study of Homo sapiens with 6 samples.

Results

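The 10 genes described here encode the proteins that mark the branch site and the 3′ splice site of an intron before splicing. U2AF1, U2AF2 and PUF60 read the 3′ end of the intron, and PHF5A with SF3B1 through SF3B6 forms the SF3B complex of U2 snRNP. The members were chosen by symbol, and all 10 were found among the 38100 genes in both deposited tables. The cells were HK2, an established line of human kidney tubular epithelial cells with the genotype label WT, and all were stimulated with TGF-beta1. They carried either an empty control adenovirus (AdCtrl, n = 3) or an adenovirus for Sirt4 (AdSirt4, n = 3). Unstimulated or uninfected cells are not analysed here, so each difference below is one between the AdSirt4 and AdCtrl groups under TGF-beta1. The dose and duration of TGF-beta1 are not in the labels. The study reads n in vitro as technical replicates. If that holds for these libraries, the p-values measure technical spread.

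At the 3′ splice site, U2AF2 binds the polypyrimidine tract and U2AF1 contacts the AG that ends the intron. U2 snRNP then replaces the branch-point binding protein SF1 and pairs with the branch site, where SF3B clamps the RNA duplex and leaves the branch adenosine bulged for the first chemical step. The study proposed that SIRT4 removes an acetyl group from a lysine of U2AF2, so the question put to the gene counts was whether transcripts of U2AF2 and its SF3B partners also differ between the groups. Acetylation and binding between proteins are not measured by these counts.

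The lysine in question is K413 of the 475-residue product of U2AF2. The 27 coding bases around it are printed because they show the residue on which the study turns. They lie in exon 11 of 12 at chr19:55669624-55669650 on the plus strand (GRCh38, GENCODE transcript), and the capitals mark the lysine codon:
U2AF2 codons 409 to 417: tacgggcttgtcAAGtccatcgagatc
The same bases encode K409 of the 471-residue product and K245 of a 307-residue product. A residue number for this lysine therefore needs the isoform beside it. The tables give a single value for U2AF2 and do not separate these products.

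The AdCtrl libraries held 53677241, 42102861 and 50190728 counts and the AdSirt4 libraries 41537353, 85684748 and 80040053. AdSirt4 replicate 1 was thus the shallowest library, and AdSirt4 replicates 2 and 3 were the deepest. Values below are CPM, the count as a share of the library total after TMM scaling, or FPKM, which is also divided by gene length and is as the authors scaled it. SIRT4 rose from 0.93 ± 0.309 CPM to 76.0 ± 21.9 CPM (mean ± SD, n = 3 each), a log2 fold change of 6.36 with a standard error (SE) of 0.36 and an adjusted p of 0.00801 in the edgeR quasi-likelihood test with Benjamini-Hochberg adjustment. The groups were compared over the 17720 genes with enough counts, of which 2, SIRT4 and ADAMTS1, passed an adjusted p of 0.05. AdSirt4 replicate 1 stood apart. Its counts tilted toward short genes, and it differed from the other AdSirt4 libraries by a chi-square per gene of 129 and 173, against 13.2 between those 2. The epithelial markers PAX8, KRT8, KRT18, KRT7, EPCAM, CDH6 and GGT1 were present at 1 FPKM or more, whereas the differentiated proximal tubule markers ANPEP, AQP1, LRP2 and CUBN lay under 0.1 FPKM and SLC34A1 and SLC5A2 under 1 FPKM. The summed level of the 13 epithelial markers was 916 to 965 FPKM in AdCtrl and 882 to 1085 FPKM in AdSirt4. None of 4 endothelial markers reached 1 FPKM. Of the fibroblast and leukocyte markers, 1 of 5 and 1 of 4 did. In bulk RNA, fewer cells with a transcript and less of it per cell cannot be told apart.

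None of the 10 transcripts passed the test. U2AF2 averaged 203 CPM in AdCtrl and 209.5 CPM in AdSirt4, and its 3′ splice site partners U2AF1 and PUF60 had log2 fold changes of 0.42 and 0.28. Within SF3B, 5 subunits had fold changes above 0 and SF3B2 and SF3B3 had fold changes below 0. The 95% interval of every member's fold change ended below 2, the highest bound being 1.93 for SF3B6 and the lowest bound 0.736 for SF3B3. At an adjusted p under 0.05, 0 of 10 members were called, against 0.0113% of all genes tested. At an unadjusted p under 0.05 it was also 0 of 10, against 7.93%. At the adjusted threshold DESeq2 called 0 members, against 0.769% of the 15861 genes it adjusted, and limma voom with sample quality weights called 0, against 9.51% of all genes. Over the members, the median log2 fold change was 0.17 against 0.021 over all genes tested. It was 0.049 without AdSirt4 replicate 1.

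**Figure D1:**
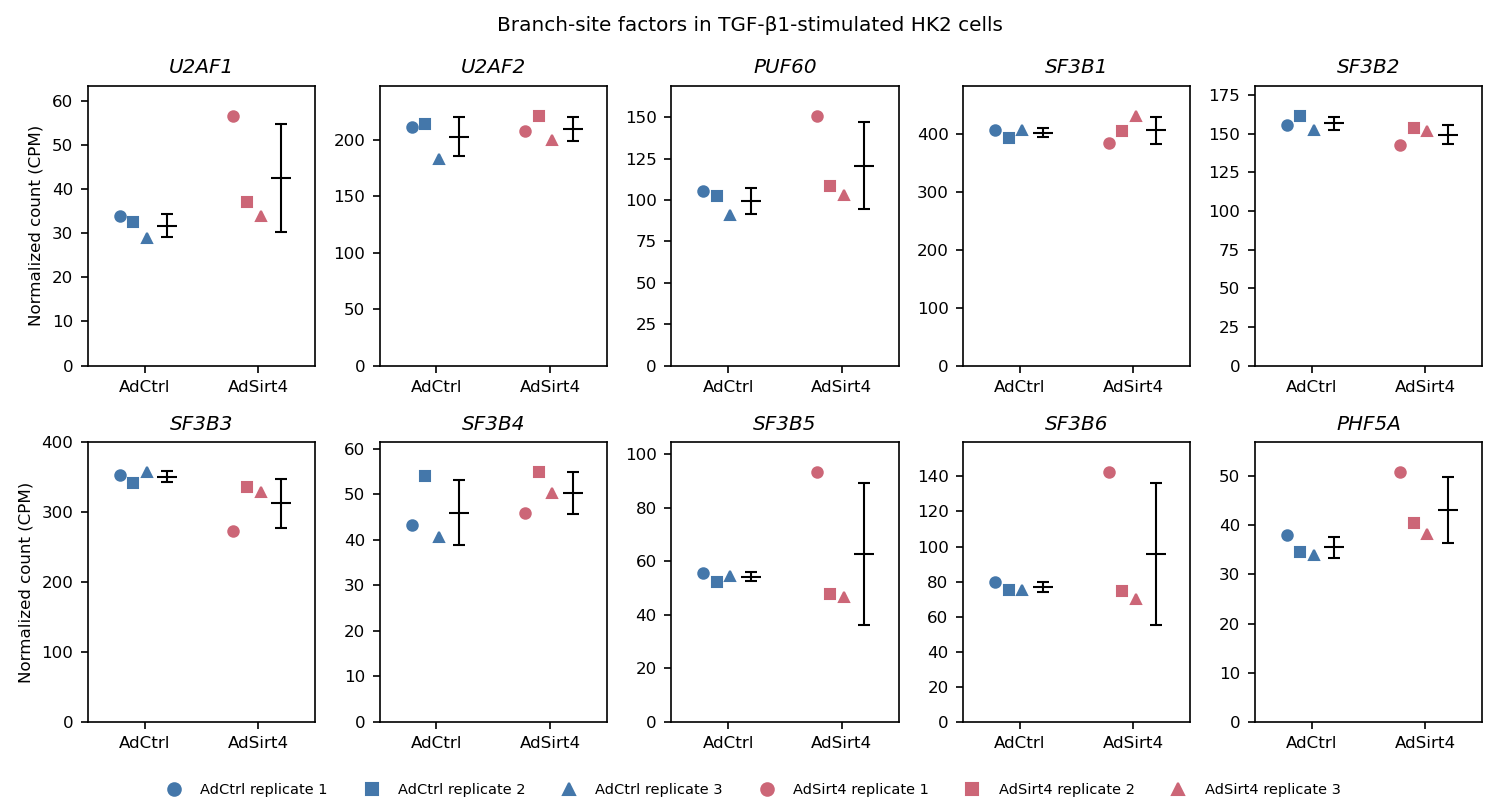
Normalized count (CPM, vertical axes from 0) of each of the 10 factors in the 3 AdCtrl and 3 AdSirt4 libraries. Symbols are replicates 1 to 3, and the black bars are the mean ± SD. AdSirt4 replicate 1 is the highest of the 6 libraries for 5 genes and the lowest for 3.

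U2AF2, the large subunit of U2AF and the protein that binds the polypyrimidine tract, lies at chr19:55654146-55674715 on the plus strand (GRCh38). It was measured at 211, 214 and 183 CPM in AdCtrl replicates 1, 2 and 3 and at 208, 221 and 199.9 CPM in AdSirt4 replicates 1, 2 and 3. AdCtrl replicate 3 was the lowest library, AdSirt4 replicate 2 the highest, and the groups overlapped. The log2 fold change was 0.047 (SE 0.11, 95% interval -0.20 to 0.30, adjusted p = 0.888 by edgeR). The interval corresponds to folds between 0.869 and 1.23. The exact permutation test over samples, two-sided, gave p = 0.7, where 0.1 is the smallest that 3 samples against 3 allow. Among the 10 members, U2AF2 was one of the 2 whose spread was smaller in AdSirt4, with a coefficient of variation of 8.42% in AdCtrl and 5.10% in AdSirt4. The annotation places 2 noncoding genes, AC008735.1 on the same strand and AC008735.2 on the opposite strand, within the U2AF2 locus. The library protocol names no strand marking, so reads of the antisense gene cannot be separated from those of U2AF2. Overlapping genes are also annotated for SF3B1 (RF00394, opposite strand), SF3B2 (AP006287.2, opposite strand) and SF3B3 (SNORD111B and SNORD111, same strand).

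U2AF1 is the small subunit of U2AF, which contacts the AG at the 3′ splice site. Its counts gave 33.8, 32.4 and 28.9 CPM in AdCtrl and 56.5, 37.1 and 33.9 CPM in AdSirt4. All 3 AdSirt4 libraries were higher, but AdSirt4 replicate 3 was barely above AdCtrl replicate 1, and AdSirt4 replicate 1 held most of the gap. By edgeR the log2 fold change was 0.42 (SE 0.20, 95% interval -0.054 to 0.89, adjusted p = 0.677), and the exact permutation p was 0.1, the smallest possible. It was 0.16 without AdSirt4 replicate 1 and 0.56 without AdSirt4 replicate 3.

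The U2AF1 value has a limit of its own. The genome holds a near-identical copy on the same chromosome, U2AF1L5, listed in the tables as LOC102724594. U2AF1 lies at chr21:43092956-43107587 and the copy at chr21:6484623-6499261, both on the minus strand (GRCh38). Over the 720 coding bases of each of the 240-codon isoforms, the copies differed at 0 positions, while the 2 isoforms differ from each other at 23. The U2AF1 row held between 48.6% and 49.2% of the counts of both rows together in every library (95% Wilson interval 47.5 to 50.7% in AdCtrl replicate 1 and 47.3 to 49.9% in AdSirt4 replicate 3, counting error only). How reads matching both copies were assigned is not known, so these intervals cannot show an imbalance between the genes. If such reads were entered in both rows, a sum of the rows counts them more than once. By edgeR the copy itself had a log2 fold change of 0.44 and an adjusted p of 0.649. Counted together, a choice made after seeing the data, the rows averaged 64.7 ± 4.82 CPM in AdCtrl and 87.3 ± 25.1 CPM in AdSirt4 (n = 3 each). Their log2 fold change was 0.43 (SE 0.20, 95% interval -0.036 to 0.90, adjusted p = 0.660 by edgeR). Which of the copies the reads came from cannot be told apart.

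PUF60 is a poly-U binding protein related to U2AF2 that joins it at weak 3′ splice sites. It was measured at 105, 102 and 90.7 CPM in AdCtrl and at 151, 109 and 103 CPM in AdSirt4. AdSirt4 replicate 1 was far above the rest and AdSirt4 replicate 3 lay within the AdCtrl range, so the groups overlapped. The log2 fold change was 0.28 (SE 0.16, 95% interval -0.10 to 0.67, adjusted p = 0.708 by edgeR), and the exact permutation p was 0.2. With AdSirt4 replicate 1 left out it was 0.086.

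SF3B1 is the scaffold of the complex, which closes around the branch-site duplex, and SF3B3 is the large propeller protein it rests on. SF3B1 was measured at 408, 394 and 407 CPM in AdCtrl and at 385, 405 and 432 CPM in AdSirt4, which placed AdSirt4 libraries at both ends of the range. Its log2 fold change was 0.015 (SE 0.10, 95% interval -0.23 to 0.25, adjusted p = 0.964 by edgeR). SF3B3 was measured at 354, 342 and 357 CPM in AdCtrl and at 273, 337 and 329 CPM in AdSirt4. It was the only member with all AdSirt4 libraries below all AdCtrl libraries, and AdSirt4 replicate 1 was the lowest. For SF3B3 edgeR gave a log2 fold change of -0.17 (SE 0.12, 95% interval -0.44 to 0.11, adjusted p = 0.740), and the exact permutation p was 0.1. Without AdSirt4 replicate 1 it was -0.082.

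SF3B2 and SF3B4 bind each other and touch the RNA upstream of the branch site. SF3B2 was measured at 156, 161 and 153 CPM in AdCtrl and at 142, 154 and 152 CPM in AdSirt4. The groups overlapped, although AdSirt4 replicate 1 was the lowest. The log2 fold change was -0.068 (SE 0.089, 95% interval -0.28 to 0.14, adjusted p = 0.823 by edgeR). SF3B4 was measured at 43.2, 54.0 and 40.6 CPM in AdCtrl and at 45.8, 54.9 and 50.2 CPM in AdSirt4. Here AdCtrl replicate 2 lay beside the highest AdSirt4 library, and SF3B4 had the largest coefficient of variation of the members in AdCtrl, 15.5%. Its log2 fold change was 0.13 (SE 0.14, 95% interval -0.19 to 0.45, adjusted p = 0.789 by edgeR), and it ran from 0.049 without AdCtrl replicate 3 to 0.26 without AdCtrl replicate 2.

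Of the 3 small subunits, SF3B5 and SF3B6 had the largest coefficients of variation of the members within AdSirt4, 42.4% and 42.3%, and PHF5A had 15.5%. PHF5A, a zinc-finger protein that forms the pocket for the branch adenosine together with SF3B1, was measured at 38.0, 34.6 and 33.9 CPM in AdCtrl and at 50.8, 40.5 and 38.2 CPM in AdSirt4. All AdSirt4 libraries were higher, AdSirt4 replicate 3 by a narrow margin over AdCtrl replicate 1. For PHF5A edgeR gave a log2 fold change of 0.28 (SE 0.13, 95% interval -0.030 to 0.59, adjusted p = 0.672), and the exact permutation p was 0.1. The value was 0.14 without AdSirt4 replicate 1. SF3B6, also called p14 and found next to the branch adenosine, was measured at 80.0, 75.1 and 75.2 CPM in AdCtrl and at 142, 74.6 and 70.1 CPM in AdSirt4. Its log2 fold change of 0.32 (SE 0.27, 95% interval -0.32 to 0.95, adjusted p = 0.766 by edgeR) rested on 1 library, since the other AdSirt4 libraries were below all AdCtrl libraries.

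SF3B5, the smallest subunit, which sits on SF3B3 and is encoded by a single exon, had the same shape. It was measured at 55.8, 52.4 and 54.7 CPM in AdCtrl and at 93.4, 47.9 and 46.8 CPM in AdSirt4. AdSirt4 replicate 1 was the highest of the 6 libraries and the other AdSirt4 libraries were the lowest. With all libraries the log2 fold change was 0.21 (SE 0.27, 95% interval -0.43 to 0.84, adjusted p = 0.823 by edgeR). Without AdSirt4 replicate 1 it was -0.20 (SE 0.054, adjusted p = 0.0473 by edgeR), and the adjusted p over all fits ran from 0.0473 to 0.997. SF3B5 was the 1 of 10 members called without that library, against 6.71% of the 18287 genes then tested. With SF3B6, which went to -0.090 (adjusted p = 0.330 by edgeR), it is one of the 2 members whose direction turns on AdSirt4 replicate 1.

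Over the 10 members, 2 had all AdSirt4 libraries higher, against 9.66% of all genes tested, and 1 had all lower, against 9.77%. The other 7 overlapped. Because replicates with the same number deviated together weakly across genes (correlations of 0.178, 0.159 and 0.176), the replicate number was also fitted as a block. This pairing is not a stated design, and the part of gene length in these correlations was not tested. With the block 2 members, U2AF1 (log2 fold change 0.39) and PHF5A (0.27), reached an unadjusted p under 0.05, against 7.2% of all genes. The unadjusted p by edgeR was 0.0393 and 0.0496. Neither passed the adjustment, their adjusted p being 0.692 and 0.693 by edgeR. Voom with sample quality weights, which gives a deviating library less say, put 4 of 10 under an unadjusted 0.05, namely U2AF1 (0.20), SF3B4 (0.23) and PHF5A (0.17) above 0 and SF3B5 (-0.17) below 0, against 27.3% of all genes.

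**Figure D2:**
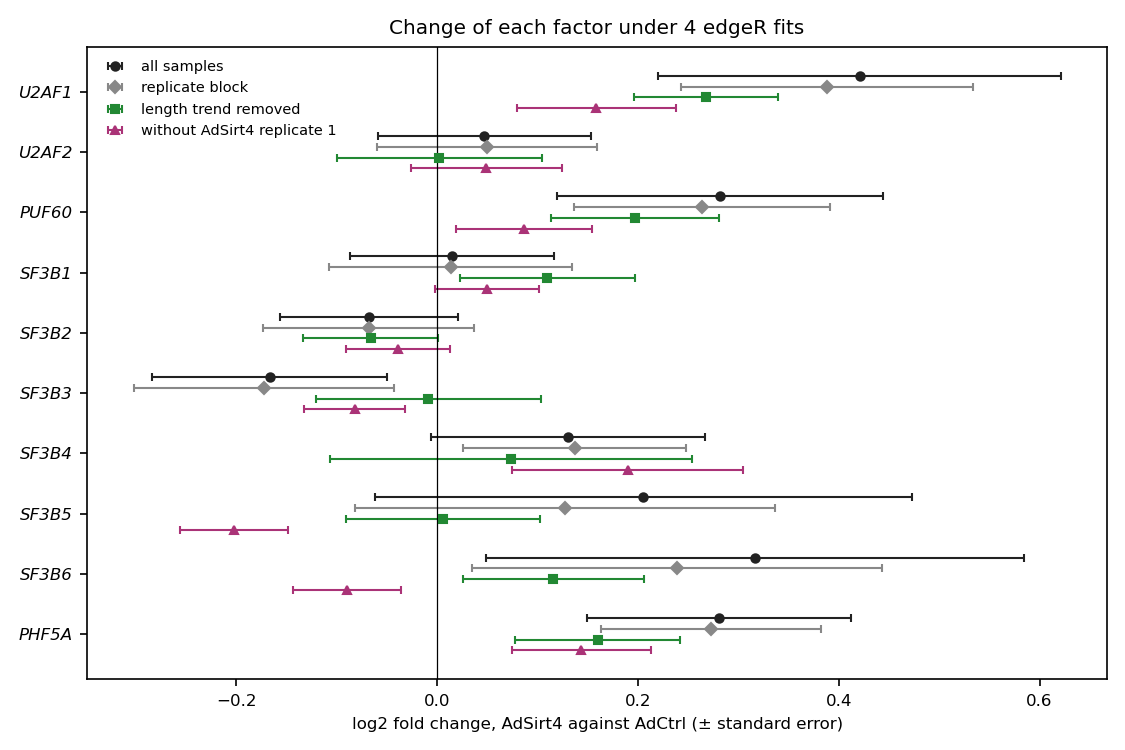
log2 fold change of AdSirt4 against AdCtrl (horizontal axis, ± standard error) for each factor in the edgeR fit on all samples, with the replicate block, with each library's length trend removed, and without AdSirt4 replicate 1. SF3B5 and SF3B6 lie on opposite sides of 0 with and without AdSirt4 replicate 1, at 0.21 and -0.20 and at 0.32 and -0.090, while U2AF2 stays within 0.05 of 0.

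In AdSirt4 replicate 1 the members were ordered largely by gene length. The lengths implied by the tables run from 744 bases for SF3B6 to 11106 bases for SF3B3. The deviation of AdSirt4 replicate 1 from the other 2 AdSirt4 libraries, in log2 CPM, was 0.98 for SF3B6 and SF3B5 (792 bases), 0.67 for U2AF1 (1086 bases) and 0.37 for PHF5A (1206 bases). At the long end it was -0.12 for SF3B1 (7057 bases) and -0.29 for SF3B3. Spearman's correlation of deviation with length was -0.84 over the 10 members and -0.59 over 17470 genes, all from the same libraries, so it is a description. In the AdCtrl libraries it lay between -0.43 and 0.26 over the members and between -0.18 and 0.18 over all genes.

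The members did not all sit on the trend of genes of their length. SF3B4 (1768 bases) deviated by -0.20 where the trend was 0.43, a distance of -0.62, against a spread of 0.38 of all genes around the trend (scaled median absolute deviation). SF3B3 lay 0.39 above the trend, about the size of that spread. Inside the spread, SF3B5 lay 0.28 above the trend and U2AF2 0.27 below it (-0.018 against 0.25). The other members were no farther from it than U2AF2. A separate fit removed each library's length trend, taken against the mean of all libraries and not against its own group. This also removes any length-linked difference between the groups. In that fit the log2 fold change of SF3B3 was -0.0087, that of SF3B5 0.0058, that of SF3B6 0.12 and that of U2AF2 0.0021. U2AF1 remained at 0.27 (SE 0.071, unadjusted p = 0.00595, adjusted p = 0.196 by edgeR) and PUF60 at 0.20 (unadjusted p = 0.0481, adjusted p = 0.356). These 2 of 10 were under an unadjusted 0.05, against 13.9% of all genes. What gave AdSirt4 replicate 1 its tilt was not tested.

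**Figure D3:**
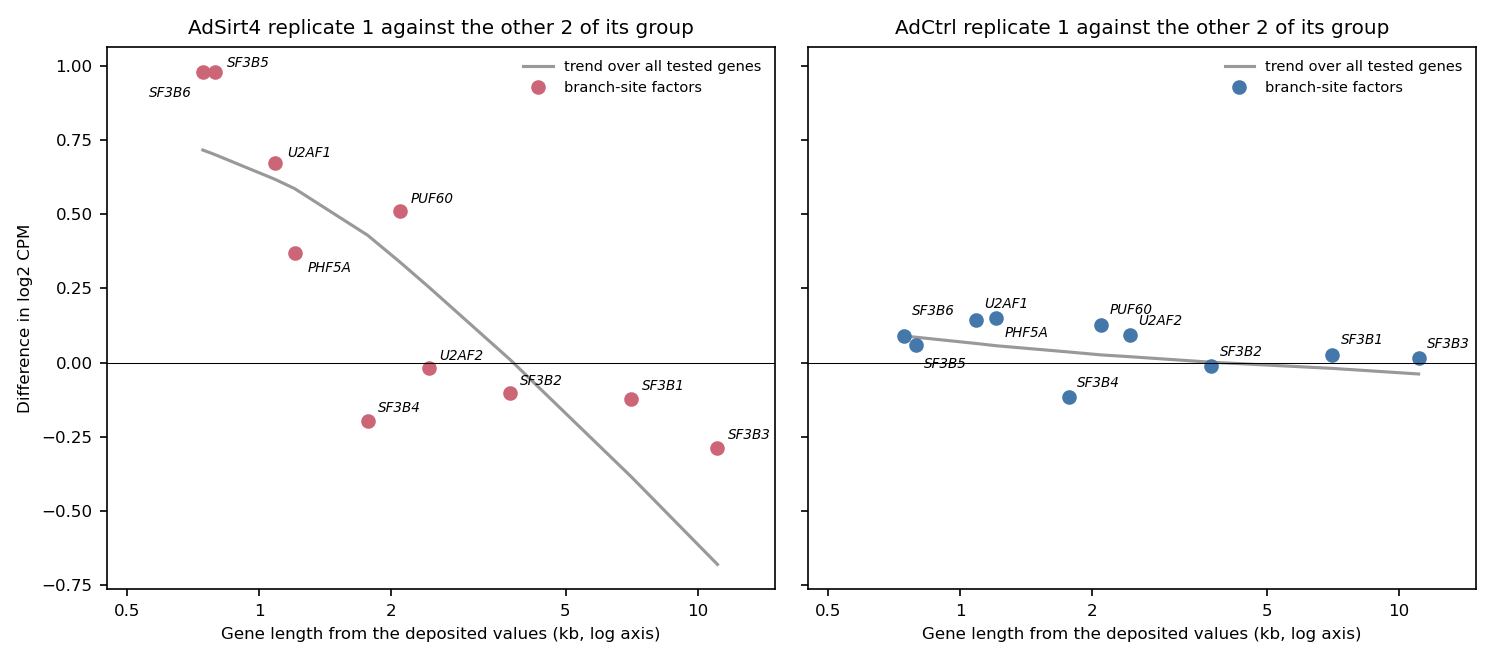
Difference in log2 CPM of replicate 1 from the other 2 libraries of its group (vertical axis) against gene length in kb (log axis), for AdSirt4 on the left and AdCtrl on the right. Points are the 10 factors and the grey line is the trend over all tested genes at their lengths. In AdSirt4 the points run from 0.98 for SF3B5 and SF3B6 to -0.29 for SF3B3, and SF3B4 lies 0.62 under the line.

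Per length, all members were among the more abundant transcripts of these cells, between the 86.4th and 97.2nd percentile of the genes tested. SF3B6 was the highest in AdCtrl with 104.5 ± 4.77 FPKM, followed by U2AF2 with 84.0 ± 4.69, SF3B5 with 69.4 ± 3.90, SF3B1 with 57.6 ± 3.47 and PUF60 with 47.8 ± 2.62 FPKM (SD, n = 3 each). SF3B2 came next with 42.4 ± 0.406 FPKM. SF3B3 (32.0 ± 1.72), PHF5A (29.8 ± 1.81), U2AF1 (29.5 ± 1.78, its copy not included) and SF3B4 (26.2 ± 3.28) closed the order. The first 6 and the step to SF3B3 were separated in AdCtrl, whereas the 3 neighbouring pairs among the last 4 overlapped. Over all 6 libraries, 6 of the 9 neighbouring pairs overlapped. U2AF2 and U2AF1 encode the partners of a heterodimer, but their order depends on how the copy of U2AF1 is counted. U2AF2 was at 87.1, 86.2 and 78.6 FPKM in AdCtrl and 79.2, 91.6 and 83.8 FPKM in AdSirt4. The U2AF1 row alone was at 31.3, 29.3 and 27.8 FPKM in AdCtrl and 48.6, 34.6 and 31.9 FPKM in AdSirt4, below U2AF2 in every library. Summed with the copy it was at 63.8, 59.6 and 57.1 FPKM in AdCtrl and 99.8, 71.1 and 65.7 FPKM in AdSirt4, which is above U2AF2 in AdSirt4 replicate 1 and below it in the other 5 libraries. The sum is too high if reads matching both copies were entered in each row. By group mean, SF3B3 was at rank 7 in AdCtrl and at rank 10 in AdSirt4, with 22.9 FPKM in replicate 1 and 30.6 and 30.3 FPKM in the others.

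**Figure D4:**
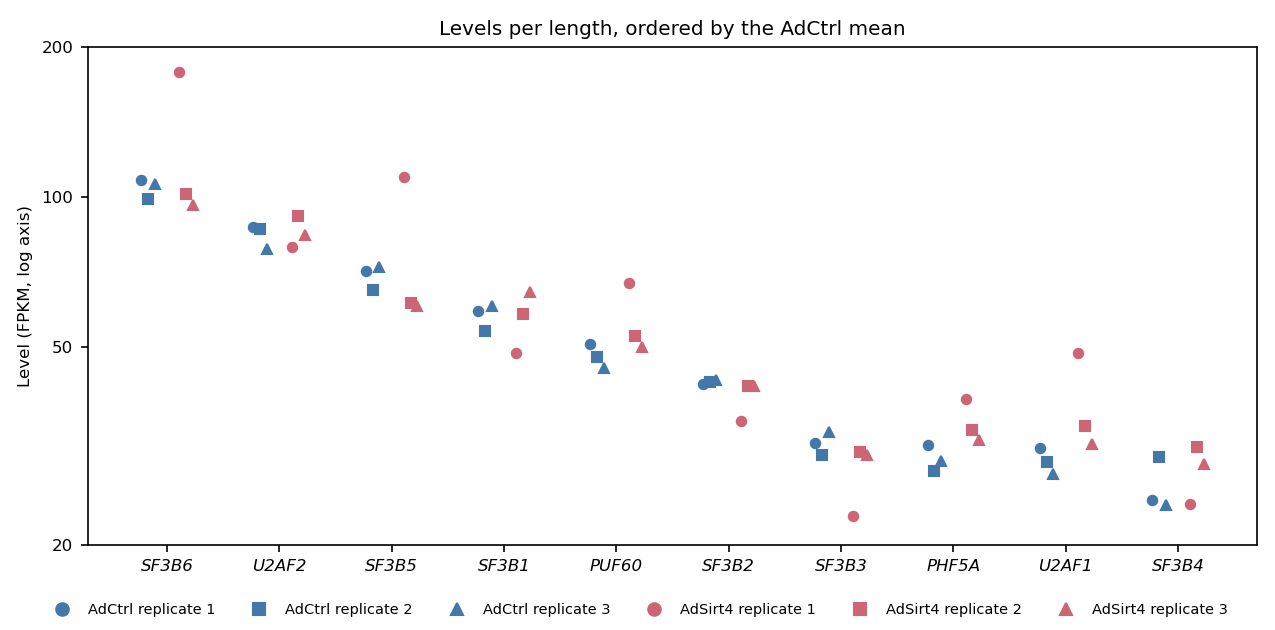
Level per length (FPKM, log axis) of each factor in the 6 libraries, ordered by the AdCtrl mean. SF3B6 leads with a mean of 104.5 FPKM and SF3B4 closes with 26.2 FPKM, and the last 4 genes overlap.

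Ratios between members within a library do not depend on library scaling, but they carry a length tilt where the 2 genes differ in length. In AdSirt4 replicate 1 the length trend was 0.62 for U2AF1 and 0.25 for U2AF2. For SF3B3 it was -0.68 and for SF3B1 -0.38. Ratios with the length trend removed were not computed. The count of U2AF1 was 16.0, 15.1 and 15.8% of that of U2AF2 in AdCtrl and 27.2, 16.8 and 16.9% in AdSirt4, higher in all 3 AdSirt4 libraries. With the copy of U2AF1 added it was 32.6, 30.7 and 32.4% in AdCtrl and 55.9, 34.5 and 34.9% in AdSirt4. These shares too are high if reads matching both copies were entered in each row. Without the copy, the mean log2 ratio differed by 0.34, and by 0.11 without AdSirt4 replicate 1. The count of SF3B3 was 86.6, 86.8 and 87.8% of that of SF3B1 in AdCtrl and 70.9, 83.0 and 76.1% in AdSirt4, lower in all 3, with a difference in log2 ratio of -0.19, or -0.13 without AdSirt4 replicate 1. For both, the two-sided exact permutation test gave p = 0.1, the smallest possible. Adjusted by Benjamini-Hochberg over the 9 ratios it was 0.45. The other 7 ratios overlapped between the groups. Taken as pairs of equal replicate number, 6 of the 9 ratios differed the same way in all 3 pairs, which include PUF60 and SF3B1 to U2AF2 and SF3B2 and PHF5A to SF3B1 among those that overlapped. The exact sign-flip test over 3 pairs gave 0.25 for these, the smallest it can give. All 9 ratios have U2AF2 or SF3B1 as their denominator, so they are not separate observations. The ratios without overlap differ one way under any pairing. The share over all gene pairs was not computed and the pairing was taken from the data, so the count of 6 is a description only. SF3B1 counts were 193, 184 and 222% of those of U2AF2 in AdCtrl and 185, 183 and 216% in AdSirt4, a difference of -0.036 on the log2 scale (exact permutation p = 0.6). The SF3B5 and SF3B6 ratios to SF3B1 differed by 0.12 and 0.23 with all libraries and by -0.25 and -0.14 without AdSirt4 replicate 1.

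**Figure D5:**
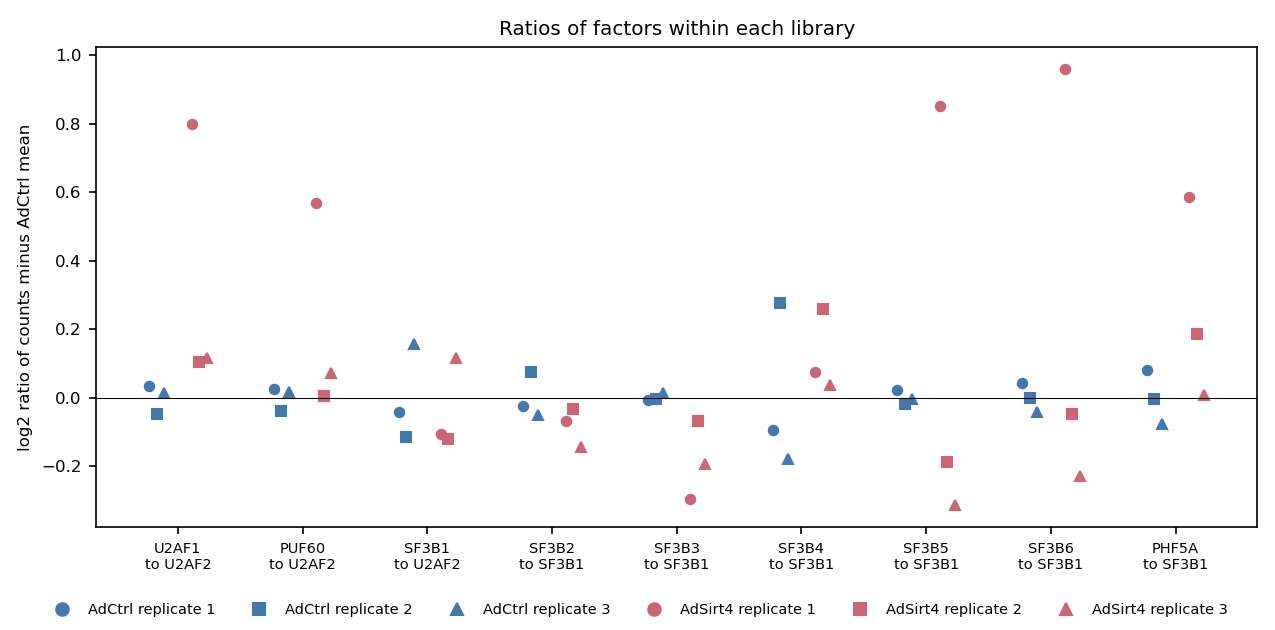
log2 ratio of counts between 2 factors in the same library, minus the AdCtrl mean (vertical axis), for the 9 ratios. U2AF1 to U2AF2 is higher in all 3 AdSirt4 libraries and SF3B3 to SF3B1 is lower in all 3, with mean differences of 0.34 and -0.19, and AdSirt4 replicate 1 is the farthest from the AdCtrl mean in both.

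Among 22 other genes of 3′ splice site and branch-site recognition (SF1, the SF3A subunits, U2 snRNP proteins and helicases), 18 had log2 fold changes above 0 and 4 below 0, with a median of 0.11 against 0.021 over all genes tested. The median was 0.055 without AdSirt4 replicate 1. The range was -0.14 to 0.39. With all samples 0 of 22 passed an adjusted or an unadjusted p of 0.05 by edgeR, against 0.0113% and 7.93% of all genes. An unadjusted 0.05 was passed by 1 with the replicate block (DDX39A, 7.2% of all genes), by 3 with the length trend removed (DHX15, DDX39A and SF3A3, 13.9%) and by 5 without AdSirt4 replicate 1 (DHX15, SF1, U2SURP, UHMK1 and SF3A3, 24.3%), some of them named after their values were seen. Voom with sample quality weights put 4 under it, against 27.3%. No fit called any at an adjusted 0.05. All AdSirt4 libraries were higher for 4 of 22, against 9.66% of all genes, and lower for 0, against 9.77%. The 4 smallest p-values belonged to DHX15, the helicase that takes spent spliceosomes apart, DDX39A, an RNA helicase of mRNA export, SF3A3, a subunit of the SF3A complex of U2 snRNP, and SMNDC1, a spliceosome assembly factor. Their log2 fold changes were 0.20, 0.39, 0.21 and 0.23, with adjusted p of 0.678, 0.678, 0.678 and 0.719 by edgeR. Without AdSirt4 replicate 1 they were 0.14, 0.14, 0.12 and 0.059. DHX15 averaged 225 ± 5.84 CPM in AdCtrl and 258 ± 16.1 CPM in AdSirt4 (n = 3 each).

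The genes whose profile over the 6 libraries was most like that of U2AF2 were ARHGEF35, CENPI and DNAJB1, with root mean square differences in centred log2 CPM of 0.019, 0.021 and 0.023, among 10357 genes with a mean of at least 10 CPM. No member was among them. The nearest was SF3B2 with 0.092 at rank 601, then SF3B1 with 0.11. A gene that varies little also scores low by this measure, so these values do not show a shared profile. U2AF1, the heterodimer partner of U2AF2, had 0.28 and rank 8467. In AdSirt4 replicate 1, U2AF1 (1086 bases) deviated by 0.67 from the other AdSirt4 libraries and U2AF2 (2440 bases) by -0.018. The U2AF1 row may also share reads with its copy, so this rank does not by itself describe co-expression of the subunits.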

How the data were processed

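Poly(A) RNA of HK2 cells was sequenced as DNA nanoballs. The submitters' notes name fastp 0.21.0, HISAT2 2.1.0, StringTie 2.1.5, DESeq2 1.30.1 and hg38. The counting step, the annotation and the handling of reads that match several genes are not given in the sources used here. The authors deposited whole-number counts per gene without normalization, and a second table taken to hold FPKM, which the file does not state. For 13013 of 17018 genes, count divided by FPKM gave the same length in all samples within 5% after 1 factor per library. The cell line labels run from HK2 to HK7 over the samples, whereas titles and the study name HK2. Groups and replicate numbers came from the sample titles.

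Counts were filtered with filterByExpr (minimum count 10), scaled with TMM and compared with the robust quasi-likelihood test of edgeR 4.0.16 (R 4.3.3), with Benjamini-Hochberg adjustment over all 17720 genes tested. Intervals are 95%. Single values were also compared with the two-sided exact permutation test (scipy 1.17.1), whose smallest p with 3 against 3 is 0.1. Ratios used raw counts. A library with 0 counts of a gene would allow up to 3. The procedure was tested on simulated data. Alternatives were RLE scaling, DESeq2 1.42.0, limma 3.58.1 (voom with sample quality weights, and log2(FPKM + 1) or log2(FPKM + 0.1)), other filters, the replicate block, removal of each library's trend on gene length (lowess span 0.3), and leaving out each sample. Deviations from the group mean correlated across genes by 0.178, 0.159 and 0.176 between libraries of equal number and by -0.188 to 0.030 otherwise, so the numbers were taken to pair the samples from the data, not from a stated design. Positions and coding bases came from GENCODE v29 (GRCh38). All members, SIRT4, the 4 partner genes with the smallest p, the 3 genes most like U2AF2 and the copy of U2AF1 are named, as is ADAMTS1, chosen after its value was seen. Members and lists were chosen with earlier results of these data known. Of the epithelial marker list, 1 gene is not reported here.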

Additional observations from a re-analysis of the deposited data

How the results depend on the processing

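At an adjusted p under 0.05, 0 members were called except that SF3B5 was called without AdSirt4 replicate 1, so leaving out 1 library gave 0 to 1. At an unadjusted p under 0.05 the count of members was 0, but 4 with voom weights, 1 with all genes of at least 1 count, 2 each with the replicate block, with the length trend removed and with both, and 0 to 2 when 1 library was left out. Over all genes, 2 were called at the adjusted threshold, against 122 with DESeq2, 1685 with voom weights, 5 with all genes of at least 1 count, 4 with at least 10 counts in every sample, 1 with the replicate block, 12 with the length trend removed, 6 with that and the block, 0 on log2(FPKM + 1) with or without the block, 1 on log2(FPKM + 0.1), 5 when genes averaging under 1 FPKM were dropped, and 0 to 1227 when 1 library was left out. The highest of these came without AdSirt4 replicate 1. The members' median of 0.17 was 0.055 with voom weights and ran from 0.049 to 0.25 when 1 library was left out. The log2 fold change of U2AF2 was -0.0012 with the length trend removed and the block, and ran from -0.022 to 0.087 when 1 library was left out. That of SF3B1 was -0.021 on log2(FPKM + 1), also with the block or the higher filter, -0.022 on log2(FPKM + 0.1), and ran from -0.030 to 0.049 when 1 library was left out. SF3B5 and SF3B6 were -0.17 and -0.049 with voom weights and ran from -0.20 to 0.38 and from -0.090 to 0.50. SIRT4 was 4.88 on log2(FPKM + 1) with or without the block, past the threshold in neither, and ran from 6.10 to 6.59, with adjusted p of 0.0559, 0.203 and 0.186 by edgeR without AdCtrl replicates 1, 2 and 3. The log2 ratio of SF3B1 to U2AF2 ran from -0.11 to 0.042, that of SF3B5 to SF3B1 from -0.25 to 0.33 and that of SF3B6 to SF3B1 from -0.14 to 0.46. The cause of these shifts was not tested. Of the members and the 4 partner genes, the replicate block put U2AF1, PHF5A and DDX39A under an unadjusted 0.05 and none under an adjusted 0.05. Under the alternatives, 385 values kept their direction and side of the threshold or their size, 27 moved, 16 changed sign and 5 lost significance.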
